A study of Mus musculus with 16 samples.

Results

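Selenoprotein genes were followed through RNA-seq and ribosome profiling (Ribo-seq) of mouse hepatoma cells. Of the 22392 gene symbols in the count table, 10 were taken as the set (Gpx1, Gpx4, Selenop, Selenot, Selenof, Selenok, Selenos, Selenow, Txnrd2 and Sephs2). Another 14 selenoprotein genes are given near the end. The 10 genes were chosen by name, with earlier results of these data known. Each was represented by the transcript with the largest summed count over all 16 libraries. The cells were Hepa1-6, an established mouse liver tumor line, either WT or carrying a CRISPR/Cas9 deletion of exon 5 of Eef1d, which encodes a subunit of translation elongation factor 1B. The 3 exon 5 KO lines (KO1, KO2 and KO3) are single-cell clones, so each is 1 clone. Each line gave 2 replicates, and each replicate gave 1 RNA-seq and 1 Ribo-seq library from the same lysate, and all lines were lysed alike, with cycloheximide and chloramphenicol. The methods call the Ribo-seq replicates biological, but neither they nor the labels say whether these were separate cultures, so p-values measure only the spread between these samples.

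Selenoproteins contain selenocysteine, an amino acid inserted at an in-frame UGA codon that would otherwise end translation. Insertion needs a stem-loop (the SECIS element) in the 3′ untranslated region of the mRNA, the SECIS-binding protein SECISBP2, and a dedicated elongation factor, EEFSEC, that carries the selenocysteine tRNA. The liver is the main source of selenoprotein P in plasma, and the transcripts of some selenoproteins, Gpx1 among them, are known to depend on selenium supply.

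The annotated coding sequences of all 10 genes held an in-frame UGA, 1 in each gene and 10 in Selenop. The sequences around the first UGA are shown because they set where a ribosome must decode UGA to reach the rest of the coding sequence. Each line gives up to 12 bases on both sides in the GENCODE transcript (build mm10, that is GRCm38), 5′ to 3′ in the sense of the gene, with the UGA in capitals as TGA and the run ending at the stop codon where that comes first.
Gpx1: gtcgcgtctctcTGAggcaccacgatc
Gpx4: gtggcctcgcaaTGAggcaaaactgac
Selenop: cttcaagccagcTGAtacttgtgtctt
Selenot: atttgtgtatccTGAgggtaccggcgg
Selenof: gaagtctgcggaTGAaaattggggagg
Selenok: atggctggtggaTGAggaaggtaa
Selenos: tcatctggcggcTGAaactaa
Selenow: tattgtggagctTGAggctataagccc
Txnrd2: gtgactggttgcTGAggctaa
Sephs2: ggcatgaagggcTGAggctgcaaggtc

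The base after the first UGA was G in 7 genes, A in 2 and T in 1. In Gpx1 the UGA was codon 47 of 201, in exon 1 of 2 (chr9:108339451-108339453, plus strand). In Gpx4 it was codon 73 of 197, in exon 3 of 7 (chr10:80054737-80054739, plus strand). In Selenop the first UGA was codon 59 of 380, in exon 2 of 5 (chr15:3274848-3274850, plus strand), and the other UGA codons lay from codon 259 onwards in exon 5. The UGA was codon 49 of 195 in Selenot (chr3:58585238-58585240, plus strand), 93 of 162 in Selenof (chr3:144590645-144590647, plus strand), 13 of 88 in Selenow (chr7:15920464-15920466, minus strand) and 63 of 452 in Sephs2 (chr7:127273731-127273733, minus strand). In the remaining 3 genes it lay at the very end, at codon 92 of 94 in Selenok (chr14:29973440-29973442), 189 of 190 in Selenos (chr7:66088844-66088846) and 526 of 527 in Txnrd2 (chr16:18477772-18477774), all on the plus strand. Because the authors left the first and last 5 codons out of their counts, the UGA of these 3 genes was outside the counted part.

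**Figure D1:**
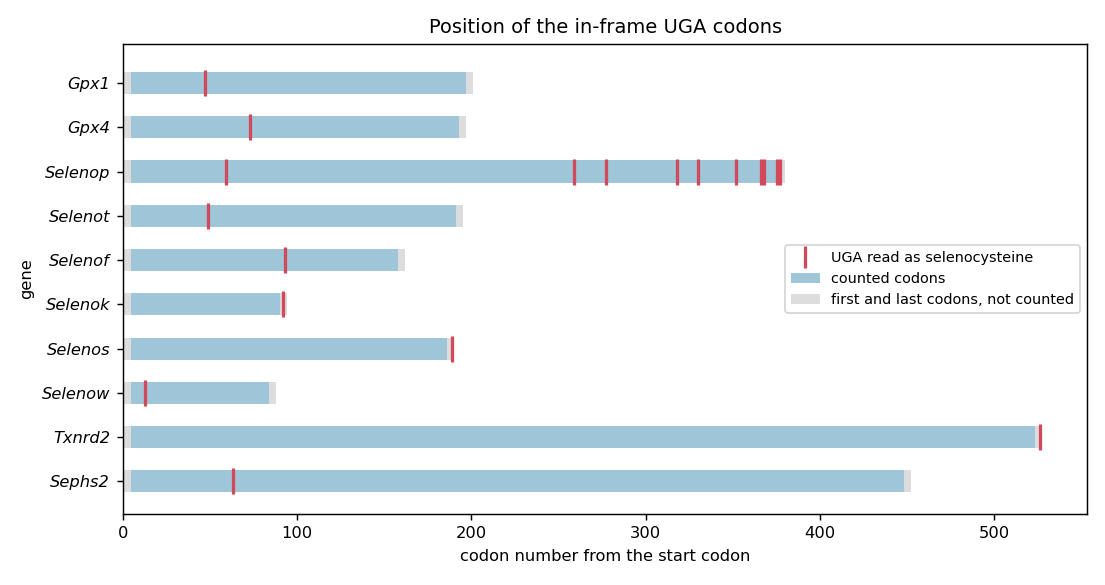
Codon number from the start codon (x axis) against gene (y axis), with red marks at the in-frame UGA codons, blue for counted codons and grey for the first and last codons that were left out. The UGA sits in the first 60% of the coding sequence in 7 genes and at the end in Selenok, Selenos and Txnrd2.

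RNA-seq totals ran from 24726706 to 30748268 counts summed over all transcripts, and Ribo-seq totals from 2604223 (KO1 replicate 2) to 11147904 (KO1 replicate 1). The Eef1d labels were checked with a transcript that has the 72 bases of exon 5 and one that differs only by lacking them. The count with exon 5 was 116% of the count without it in both WT RNA-seq libraries and from 89.8% to 92.6% in the 6 KO libraries. For Ribo-seq it was 113% and 114% in WT and from 96.0% to 98.9% in the 6 KO libraries. Both counts include the codons that the transcripts share, so these values are not the share of Eef1d RNA that holds exon 5. Of 8 hepatocyte markers, 5 had at least 10 RNA-seq counts in both replicates of every line. Apoa1, Ttr and Serpina1a, defining genes of adult hepatocytes, had between 0 and 14 counts in every RNA-seq library. Of 4 leukocyte and macrophage markers, Adgre1 was at 0 in every RNA-seq library, Ptprc had at most 5 counts, and Cd68 and Csf1r were detected in each. The summed RNA of the 4 was 9.21 and 10.7 CPM in WT and 21.7 and 21.6 in KO1, where Csf1r, a macrophage growth factor receptor, had 17.2 and 16.9 CPM against 2.83 and 5.29 in WT. Cd68 went the other way in KO1, with 4.17 and 4.34 CPM against 6.38 and 5.37 in WT.

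In WT cells most of the selenoprotein mRNAs of this set were abundant. This does not hold for selenoproteins as a class. Among 14 other selenoprotein genes, Gpx2, Gpx3, Dio1, Dio2, Dio3 and Selenov had at most 4 counts in any library. Per 100 counted codons, Selenof, which encodes an ER thiol-disulfide oxidoreductase-like protein, had the highest RNA level, 181 ± 0.00438 CPM (normalised read count scaled to library size; mean and SD, n = 2). Gpx4, the glutathione peroxidase that reduces phospholipid hydroperoxides, had 178 ± 3.86. Selenop, the secreted selenium carrier, had 117 ± 0.509. Gpx1, the cytosolic glutathione peroxidase, had 75.2 ± 0.307 and Selenot, an ER membrane protein, 66.1 ± 1.41. Selenok and Selenos, both ER membrane proteins of the degradation pathway for misfolded proteins, had 30.7 ± 0.368 and 21.8 ± 2.79. Selenow, a small thioredoxin-fold protein, had 28.0 ± 0.149 and Sephs2, the enzyme that makes selenophosphate for selenocysteine synthesis and is itself a selenoprotein, 26.2 ± 2.40. Txnrd2, the mitochondrial thioredoxin reductase, was lowest with 4.02 ± 0.410. The replicates of neighbours in this order overlapped only between Selenow and Sephs2. Selenos stood at the 79.8 percentile of the 11903 genes tested for TE in all lines together, and Txnrd2 at the 38.5 percentile, with the other genes above Selenos.

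Footprint levels kept a similar order at the top. Per 100 counted codons, Selenof had 91.1 ± 3.44 footprint CPM in WT cells, Gpx4 78.1 ± 1.28, Selenop 46.7 ± 1.33, Selenot 43.3 ± 3.30 and Gpx1 40.5 ± 2.99 (SD, n = 2). Selenos followed with 26.7 ± 2.47, Selenok with 20.2 ± 3.16, Selenow with 13.5 ± 0.549, Sephs2 with 7.86 ± 0.547 and Txnrd2 with 4.10 ± 0.194. Only Selenot and Gpx1 overlapped among neighbours. Sephs2 thus ranked 8th by RNA and 9th by footprints, and Selenos rose from 9th by RNA to 6th by footprints.

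Translation efficiency (TE), the log2 ratio of footprint CPM to RNA CPM of the same lysate, was low for most of these genes in WT cells. Sephs2 had the lowest value, -1.74 ± 0.03 (SD, n = 2), at the 5.79 percentile of 9634 genes with at least 10 counts in all 4 WT libraries. Selenop followed at -1.33 ± 0.05, Gpx4 at -1.19 ± 0.05, Selenow at -1.05 ± 0.05, Selenof at -0.99 ± 0.05 and Gpx1 at -0.90 ± 0.10. Selenot had -0.61 ± 0.14, Selenok -0.61 ± 0.24, Txnrd2 0.03 ± 0.08 and Selenos 0.30 ± 0.05. Replicates of neighbours in this order overlapped between Selenow and Selenof, Selenof and Gpx1, and Selenot and Selenok. The median of the 10 genes was -0.94 and that of all 9634 genes -0.15, and 8 of the 10 lay below the latter. The 7 genes with an early UGA ran from -1.74 to -0.61 and the 3 with a UGA outside the counted part from -0.61 to 0.30, a grouping chosen after these values were seen and not tested. Of 8 other selenoproteins with enough counts, 5 also lay below the median of all genes.

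**Figure D2:**
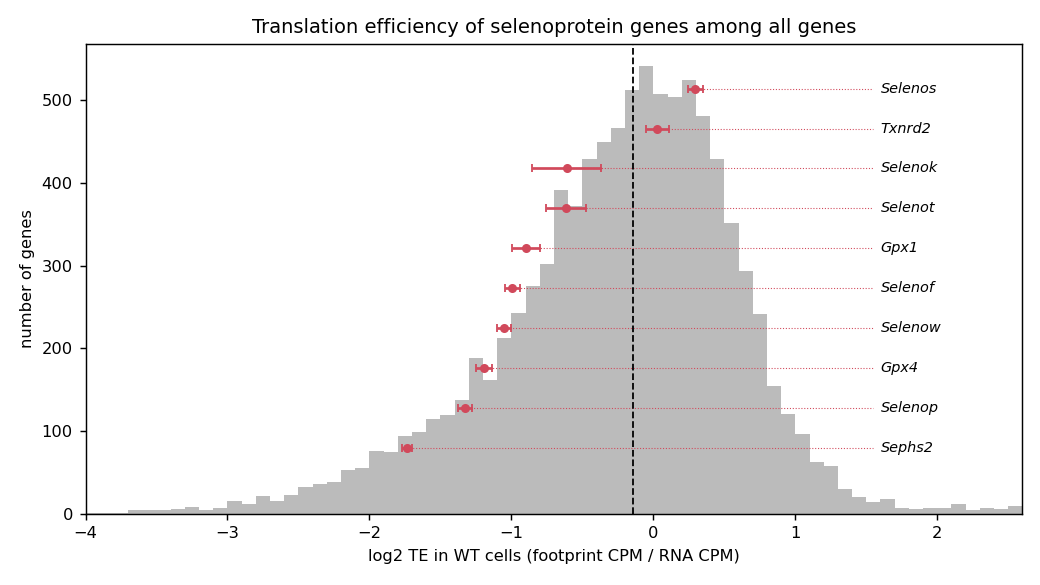
Log2 TE in WT cells (x axis, footprint CPM over RNA CPM) against the number of genes (y axis, grey, 9634 genes), with the mean and SD of 2 replicates for each selenoprotein gene in red at arbitrary heights and the median of all genes dashed. Sephs2 is farthest left at -1.74, and Txnrd2 and Selenos are the only 2 right of the dashed line at -0.15.

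In Gpx1, few footprints lay after the UGA codon, although RNA-seq counts did. A second Gpx1 transcript in the table has a coding sequence whose counted part is codons 62 to 197 of the main transcript, all of them after the UGA at codon 47, which makes 70.8% of the counted codons. This comparison was chosen after the counts were seen. In WT replicate 1, 1191 of 1588 RNA-seq counts (75.0%) but 14 of 291 footprints (4.81%, 95% exact binomial interval 2.65% to 7.94%) fell on it. In WT replicate 2 these were 1278 of 1689 RNA-seq counts (75.7%) and 12 of 178 footprints (6.74%, interval 3.53% to 11.5%). The intervals cover counting error only, since PCR copies are not independent molecules. The ratio of footprints after to before codon 62, divided by the same ratio for RNA, was 0.0192 over both WT replicates. That is 52.1-fold lower than if footprints had been spread like the RNA-seq counts. The median of the same measure was 1.22 over 536 other genes with such a nested downstream sequence, and Gpx1 was below all 536.

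The 2 highest shares of Gpx1 footprints after the UGA were those of KO1, a difference between shares that was not tested. They were 54 of 521 (10.4%) and 13 of 132 (9.85%) in the KO1 replicates, against 5.87% and 6.91% in KO2, 5.38% and 8.25% in KO3 and the WT values above. Both KO1 libraries lay above both WT libraries, although the interval of KO1 replicate 2, 5.35% to 16.3%, reached into the WT range. In fits over all transcripts (31875 for footprints and 37569 for RNA), footprints on the downstream transcript rose in KO1 (log2 fold change 1.34, SE 0.33, adjusted p = 0.000898 by edgeR's quasi-likelihood test), and its RNA rose by less (0.41, SE 0.06, adjusted p = 3.51e-07). The change in TE of this transcript in KO1 was 0.93 (SE 0.31) and did not pass the test after adjustment (edgeR adjusted p = 0.384).

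Selenop footprints were also concentrated towards the start. A shorter transcript covers codons 6 to 172 of the main coding sequence, which holds the first UGA at codon 59 and none of the others. This part is 45.0% of the counted codons and took 30.2% and 29.3% of RNA-seq counts but 76.5% and 74.2% of footprints in the WT replicates. The relative density of 7.31 exceeded that of 1043 of 1045 other genes with a nested upstream sequence, whose median was 1.06. In the clones the footprint share ran from 66.7% in KO1 replicate 2, with 81 footprints, to 76.9% in KO1 replicate 1. How RNA-seq fragments that run past the end of a shortened transcript were counted is not given in the sources used here. If they were left out, the RNA share is too low and the relative density too high.

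Gpx4 lay near the middle of the other genes in this measure. Its codons 46 to 193, which hold the UGA at codon 73 along with codons before it, took 84.9% and 86.9% of WT footprints and 82.0% and 83.1% of RNA-seq counts, a relative density of 1.26 at the 52.2 percentile. In Selenos, codons 94 to 184, which all lie before the UGA, took 71.0% and 70.6% of WT footprints but 43.7% and 45.0% of RNA-seq counts. The relative density of 3.06 exceeded that of 501 of 536 other genes with a nested downstream sequence. In Selenof, codons 53 to 88, just before the UGA at codon 93, are 23.5% of the counted codons and took 46.2% and 44.5% of WT footprints against 14.9% and 14.5% of RNA-seq counts. No other genes were compared for such an internal part. Whether RNA-seq fragments that run past its end were counted is likewise not given, so its RNA share may be too low.

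**Figure D3:**
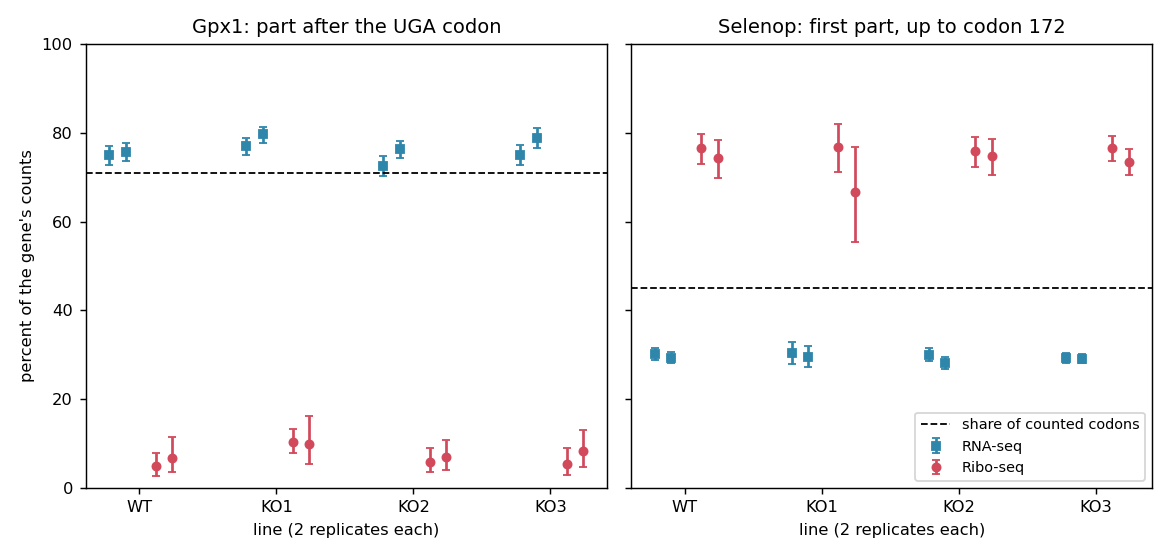
Percent of a gene's counts on the part after the UGA of Gpx1 (left) and on the first part of Selenop (right) in each library (y axis) by line (x axis), with RNA-seq in blue, Ribo-seq in red, bars for 95% exact binomial intervals and the share of counted codons dashed. Gpx1 footprints stay at or below 10.4% while RNA-seq counts stay at or above 72.6%, and Selenop footprints stay at or above 66.7% while RNA-seq counts stay at or below 30.3%.

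The clones were compared with WT cells to ask whether loss of Eef1d exon 5 changed mRNA or translation of these genes. A call means an adjusted p under 0.05 (Benjamini-Hochberg) by edgeR's quasi-likelihood test over all genes tested. For RNA, KO1 had 6 of the 10 genes called, where 46.7% of all genes tested were. Of these, 3 were higher and 3 lower, against 22.1% and 24.6% of all genes. KO2 had 1 of the 10 called for RNA (background 20.4%), and it had 2 without KO2 replicate 1 (21.5% of all genes) and 3 without KO2 replicate 2 (19.7%). KO3 had 5 called for RNA (background 45.4%), 3 higher and 2 lower, against 23.1% and 22.3% of all genes. For footprints, KO1 had 7 genes called (background 26.9%), 4 higher and 3 lower, against 11.7% and 15.2% of all genes. The share of all genes called for footprints in KO1 fell along with the count of these genes in some alternatives. The count was 3 without WT replicate 1 (15.3% of all genes) and 3 without KO1 replicate 1 (13.4%). Selenop and Gpx4 were the 2 left by DESeq2 (8.31%) and with all libraries thinned to the smallest (16.6%). KO2 had 0 genes called for footprints (background 11.7%). KO3 had 4 called for footprints (background 30.6%), 3 higher and 1 lower, against 14.9% and 15.7% of all genes, and 2 without KO3 replicate 2 (24.3% of all genes). In KO2, 1 of the 10 genes, Selenof, had an unadjusted p under 0.05 for footprints, and DESeq2 also called 0. Selenow and Txnrd2 were called in no clone for RNA or footprints. The clones share their WT samples, so their values are given side by side.

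Selenop had the largest change of the 10 genes in KO1, in RNA and in footprints. Its RNA was 436 and 433 CPM in the WT replicates, 120 and 135 for KO1, 333 and 355 for KO2, and 512 and 599 for KO3. Both replicates of KO1 and KO2 were below, and both of KO3 above, the WT replicates. The log2 fold change was -1.77 (SE 0.06, adjusted p = 1.5e-32) in KO1, -0.33 (SE 0.05, adjusted p = 8.93e-05) in KO2 and 0.36 (SE 0.05, adjusted p = 5.06e-09) in KO3. Footprints were 170 and 177 CPM in WT, 51.8 and 69.0 for KO1, 158 and 148 for KO2, and 221 and 266 for KO3. They fell in KO1 (-1.64, SE 0.11, adjusted p = 1.23e-17), rose in KO3 (0.48, SE 0.08, adjusted p = 5.85e-06) and had a log2 fold change of -0.16 in KO2 (adjusted p = 0.213). The summed RNA of the 8 hepatocyte markers moved with Selenop, from 2318 to 2493 CPM in WT to 913 and 914 in KO1, 1826 to 1955 in KO2 and 3448 to 3615 in KO3. The markers did not all follow this sum. Of the 5 detected in every library, all lay below WT in both replicates of KO1, 4 lay below and Apob above in KO2, and in KO3 Alb and Afp lay above while Trf, Apob and Hnf4a lay below. The summed RNA of 3 fibroblast and stellate markers was 896 to 948 CPM in WT, 810 to 871 in KO1, 707 to 829 in KO2 and 1061 to 1096 in KO3. Nearly all of this sum was Dcn, with 947 and 895 CPM in WT. Pdgfrb had 0 or 1 counts in every RNA-seq library. Col1a1 went the other way in KO1, with 3.30 and 2.45 CPM against 0.638 and 0.938 in WT. The part of these markers and of Csf1r in the result was not tested. In bulk samples, fewer cells with a transcript and less of it per cell cannot be told apart.

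The glutathione peroxidases differed between clones. Gpx1 RNA was 145 and 144 CPM in WT, 181 and 186 in KO1 libraries, 149 and 156 for KO2 and 108 and 105 for KO3. It rose in KO1 (log2 fold change 0.34, SE 0.06, adjusted p = 3.4e-06) and fell in KO3 (-0.43, SE 0.07, adjusted p = 4.91e-08). Its footprints did likewise (0.45 and -0.33, adjusted p = 0.000663 and 0.0138). The footprint call in KO1 was lost by DESeq2 (adjusted p = 0.0728) and in thinned libraries (edgeR adjusted p = 0.102). In KO3 it was lost in both as well (0.254 and 0.0843), and without WT replicate 1 (edgeR adjusted p = 0.231) or KO3 replicate 2 (0.0762). In KO2 both replicates were above WT, but the RNA difference of 0.09 did not pass the test (adjusted p = 0.372). Gpx4 RNA was 330 and 341 CPM in WT, 502 and 529 in KO1 libraries, 293 and 322 for KO2 and 390 and 392 for KO3. Its level increased in KO1 (0.62, SE 0.05, adjusted p = 3.84e-16) as well as KO3 (0.23, SE 0.05, adjusted p = 0.000105). Its footprints rose in the same clones (0.43 and 0.37, adjusted p = 7.43e-05 and 0.000535) and were -0.01 from WT in KO2 (adjusted p = 0.966). The footprint call of Gpx4 in KO3 was lost in thinned libraries (edgeR adjusted p = 0.0743) and without KO3 replicate 2 (log2 fold change 0.24). Its RNA change in KO2 was -0.12, and -0.19 without KO2 replicate 2.

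Sephs2 followed the direction of Selenop in KO1 and KO3. Its RNA was 124 and 109 CPM in WT, 82.2 and 71.7 in KO1 libraries, 123 and 120 for KO2 and 152 and 140 for KO3. It fell in KO1 (-0.59, SE 0.08, adjusted p = 2.85e-09) and rose in KO3 (0.34, SE 0.07, adjusted p = 1.33e-05), as did its footprints (-0.49 and 0.47, adjusted p = 0.021 and 0.00615). The 2 KO1 libraries were below and the 2 KO3 libraries above both WT libraries in both assays. The footprint call was lost by DESeq2 in KO1 (adjusted p = 0.51) and KO3 (adjusted p = 0.173). In thinned libraries it was lost in KO1 (edgeR adjusted p = 0.357). It was also lost in KO1 without WT replicate 1 (log2 fold change -0.40) or KO1 replicate 1 (-0.32). In KO3 it was lost without KO3 replicate 1 (0.37).

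Each call of a clone against WT on the ER proteins Selenos, Selenot, Selenof and Selenok was lost without some single library, and none of these passed by DESeq2 (adjusted p from 0.0784 to 0.563). Selenos RNA was 43.0 and 35.8 CPM in WT and 35.4 and 23.9 in KO1. It fell in KO1 by 0.40 on the log2 scale (SE 0.12, adjusted p = 0.0042). Without WT replicate 1 the difference was -0.27 (edgeR adjusted p = 0.113), and without KO1 replicate 2 it was -0.15 (edgeR adjusted p = 0.329). Its footprints fell in KO1 by 0.45 (adjusted p = 0.017). That difference was -0.33 without WT replicate 1 (edgeR adjusted p = 0.278) and -0.14 without KO1 replicate 1 (edgeR adjusted p = 0.773). Selenot RNA was 125 and 121 CPM in WT and 141 and 138 in KO1. It rose in KO1 by 0.18 (SE 0.06, adjusted p = 0.0192), and the edgeR adjusted p was 0.0734 without WT replicate 1, 0.174 without WT replicate 2 and 0.0886 without KO1 replicate 1. Its footprints rose by 0.29 (adjusted p = 0.0361), with an edgeR adjusted p of 0.408 without WT replicate 1, 0.176 without KO1 replicate 1 and 0.0634 without KO1 replicate 2. Selenof RNA stayed between 264 and 295 CPM in all 8 libraries, with no clone called. Selenof footprints rose in KO1 by 0.26 (adjusted p = 0.0204), with an edgeR adjusted p of 0.256 without WT replicate 1, 0.0585 without WT replicate 2 and 0.207 without KO1 replicate 1. Selenok RNA was 25.9 and 26.4 CPM in WT and 18.9 and 22.6 in KO3. It fell in KO3 by 0.33 on the log2 scale (SE 0.12, adjusted p = 0.0252), with an edgeR adjusted p of 0.0822 without WT replicate 1, 0.123 without WT replicate 2 and 0.26 without KO3 replicate 1. RefSeq lists 8 pseudogenes of Selenok, 2 of Gpx4 and 1 of Selenot. Since the authors kept uniquely mapped reads, counts of these 3 genes are uncertain where the copies are near-identical.

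**Figure D4:**
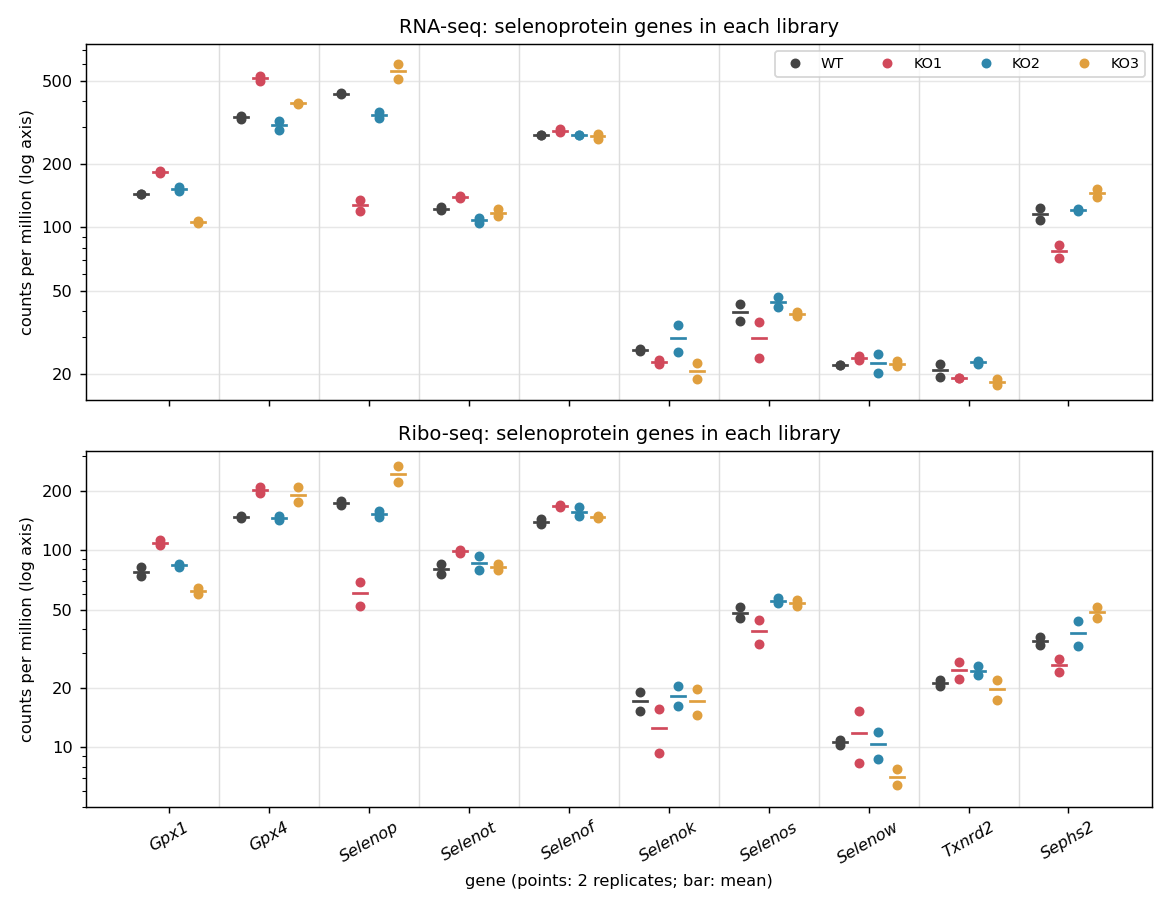
CPM (log y axis) of the 10 genes (x axis) in RNA-seq (top) and Ribo-seq (bottom), with a point for each of 2 replicates and a bar for their mean in WT, KO1, KO2 and KO3. Selenop RNA drops from 436 and 433 in WT to 120 and 135 in KO1, while Selenof stays between 264 and 295 in all 8 RNA-seq libraries.

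For the mean of the 3 clones against WT, 2 of the 10 genes were called for RNA, where 18.9% of all genes were (7.18% higher and 11.7% lower). Gpx4 rose (0.24, SE 0.05, adjusted p = 0.000155) and Selenop fell (-0.58, SE 0.05, adjusted p = 2.82e-11), and the same 2 were called for footprints (0.27 and -0.43, adjusted p = 0.00913 and 0.000102), where 9.25% of all genes were (2.98% higher and 6.27% lower). Selenop was the 1 gene called for footprints without WT replicate 1 (3.5% of all genes) and without WT replicate 2 (5.27%). The test of the mean uses the spread between libraries of a line, not the spread between clones. The clones did not share a direction for either gene. In KO1, KO2 and KO3 the RNA change was -1.77, -0.33 and 0.36 for Selenop and 0.62, -0.12 and 0.23 for Gpx4. The 3 clones differed from each other in the RNA of 7 genes, against 74% of all genes, and in the footprints of 5 genes, against 59.5%.

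TE differed from WT in 0 of the 10 genes in each clone and in the mean of the clones by edgeR's test, where 0.0942%, 0.0173%, 0.104% and 0% of all genes were called in KO1, KO2, KO3 and the mean. At an unadjusted p under 0.05 the only ones were Selenof in KO1 (0.21, 95% interval 0.01 to 0.40), Selenot in KO2 (0.29, interval 0.03 to 0.54) and Selenow in KO3 (-0.64, interval -1.24 to -0.05), and DESeq2 called 0 of the 10 as well, although in KO1 it gave an adjusted p for 584 genes only. For Selenop the interval of the TE change was -0.12 to 0.40 in KO1, beside an RNA change of -1.77. For Selenow, with 25 to 41 footprints in 7 of 8 libraries and 18 in the other, the intervals were wider than 1 log2 unit in each clone. A TE difference among the clones was called for 0 of the 10 genes by edgeR and for 1.03% of all genes, and Gpx4 alone had an unadjusted p under 0.05 (0.00605). With the lysate as a block, which pairs each RNA-seq library with its Ribo-seq library, Gpx4 TE did differ among the clones (edgeR adjusted p = 0.0295, against 0.202 without the block). The share of all genes called was also higher with the block, at 3.42% against 1.03% without it. Gpx4 TE was -0.18 from WT in KO1, 0.11 in KO2 and 0.14 in KO3.

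**Figure D5:**
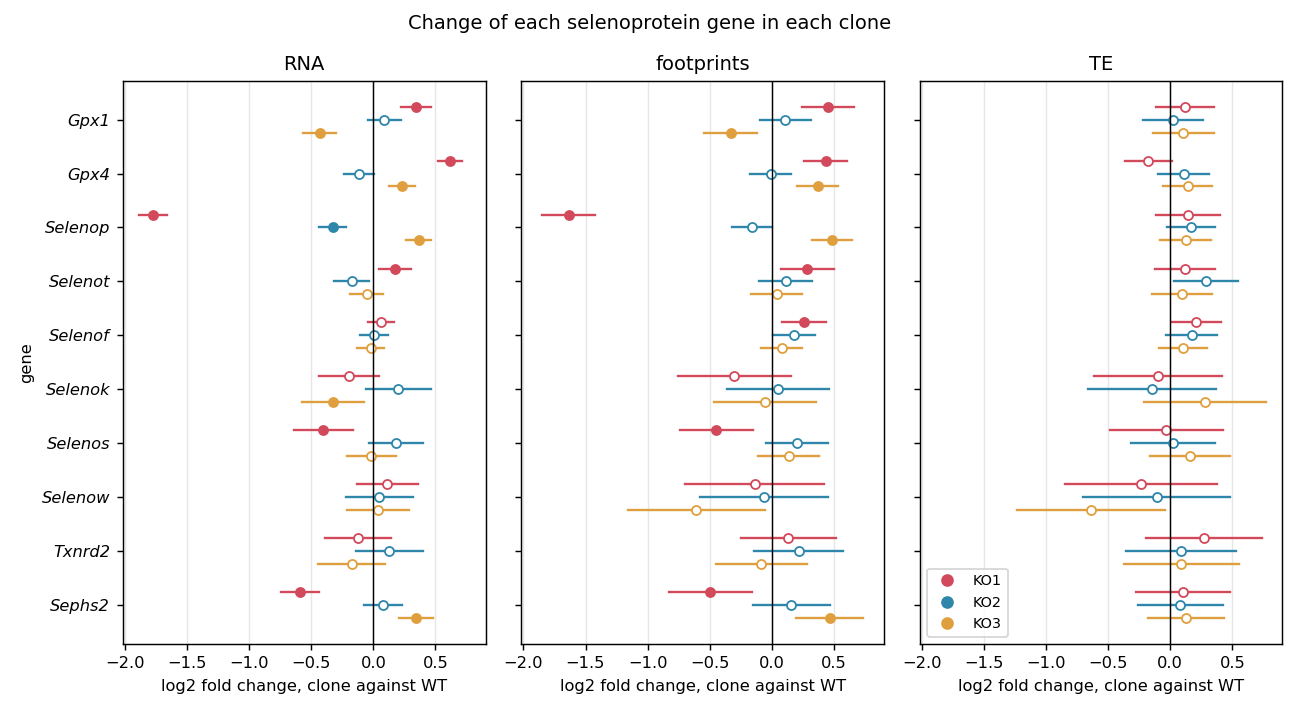
Log2 fold change against WT (x axis) of RNA, footprints and TE for each gene (y axis) in KO1 (red), KO2 (blue) and KO3 (orange), with 95% intervals and filled points for adjusted p under 0.05. Selenop in KO1 lies at -1.77 for RNA and -1.64 for footprints, and no TE point is filled.

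Of 14 other selenoprotein genes, 8 had enough counts to be tested. In KO1, 4 of the 8 were called for RNA and the same 4 for footprints, near the 46.7% of all genes for RNA and above the 26.9% for footprints. All 4 were higher, against 22.1% of all genes for RNA and 11.7% for footprints. They were Txnrd1, the cytosolic thioredoxin reductase (0.38 in RNA), Selenoh (0.43), Selenom (0.44) and Msrb1, a methionine sulfoxide reductase (0.61). Their RNA change in KO1 had a median of 0.26 over the 8, against 0.00252 over all genes. In KO2, 2 were lower in RNA (20.4% of all genes called), and in KO3 1 was higher and 1 lower (45.4%). For TE 0 of the 8 were called in any clone. Of 16 genes for selenocysteine insertion and selenium supply, 10 were called for RNA in KO1 (6 higher, 4 lower), 2 in KO2 (both higher) and 4 in KO3 (1 higher, 3 lower), against 46.7%, 20.4% and 45.4% of all genes. For footprints 15 of the 16 were tested, and 2 were called in KO1 (both higher), 2 in KO2 (both higher) and 4 in KO3 (2 higher, 2 lower), against 26.9%, 11.7% and 30.6% of all genes. Scly, which releases selenium from selenocysteine, was higher in RNA in KO1 (1.05, SE 0.09, edgeR adjusted p = 3.22e-14) and KO2 (0.85, SE 0.10, edgeR adjusted p = 7.41e-07) and was 0.10 from WT in KO3 (edgeR adjusted p = 0.468). Rpl30, a ribosomal protein that binds SECIS elements, was the 1 gene of this list whose TE differed among the clones (edgeR adjusted p = 0.00618). Of 5 relatives with cysteine in place of selenocysteine, 4 were tested for RNA, and 2 were lower in KO1, 1 lower in KO2 and 2 higher in KO3, where 46.7%, 20.4% and 45.4% of all genes were called. For footprints 1 of 3 was called in KO1 (lower), 0 of 4 in KO2 and 2 of 4 in KO3 (both higher). Of these 35 genes, Selenom, an ER-resident thioredoxin-fold protein, was the 1 called in all 3 clones for RNA, and its direction differed between them. It was higher in KO1 (0.44, SE 0.12, edgeR adjusted p = 0.00158) and lower in KO2 (-0.47, SE 0.13, edgeR adjusted p = 0.0126) and KO3 (-0.52, SE 0.13, edgeR adjusted p = 0.000472). For footprints 0 of the 35 were called in all 3 clones by edgeR, and for TE 0 were called in any clone. The share of all genes called in all 3 clones was not counted, so these counts have no background beside them.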

How the data were processed

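RNA-seq and Ribo-seq were made from the same lysates of WT and 3 Eef1d exon 5 KO Hepa1-6 lines, with 2 replicates each. The authors trimmed reads with fastp 0.21.0, aligned them to mm10 with STAR 2.7.0a, kept uniquely mapped reads and deposited whole-number counts per GENCODE transcript, leaving out 5 codons at each end of the coding sequence. Reads on shared codons count for every transcript that holds them. The labels give polyA RNA, while the methods describe rRNA depletion.

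Per gene, 1 transcript was tested by edgeR 4.0.16 (TMM within assay, low-count filter, quasi-likelihood test, Benjamini-Hochberg), in R 4.3.3. TE was tested as the interaction of line and assay. Scripts were tested on simulated data. Members and lists were chosen with earlier results of these data known. The text names all 10 members, list genes called in all 3 clones or for TE in a clone, and a few others named after their values were seen. RNA-seq and Ribo-seq of a number share a lysate, and their deviations correlated above 0.1 in all 4 lines (r from 0.104 to 0.225 over 5204 genes), so the numbers pair these 2 assays. DESeq2 1.42.0 and other alternatives are in the closing section. No protein sequence was used here.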

Additional observations from a re-analysis of the deposited data

Results flagged for a closer look

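The 3 clones carry the same kind of exon 5 deletion, yet the effect against WT differed among them for 12 results, by edgeR's test of the difference itself. In RNA the adjusted p-values were 1.15e-24 for Selenop, 2.32e-13 for Gpx4, 1.66e-12 for Sephs2, 2.53e-12 for Gpx1, 7.59e-05 for Selenot, 0.000326 for Selenos and 0.00124 for Selenok. In footprints the edgeR adjusted p-values were 5.6e-20 for Selenop, 7.17e-08 for Gpx1, 5.41e-06 for Sephs2, 2.19e-05 for Gpx4 and 0.000138 for Selenos. The difference was lost for Selenok RNA without KO2 replicate 2 (edgeR adjusted p = 0.202) and for Selenos footprints without KO1 replicate 1 (0.391). Such differences were common, at 74% of all genes for RNA and 59.5% for footprints. Clonal differences and effects of the deletion cannot be told apart within 1 clone.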

How the results depend on the processing

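Calls of a difference among the clones have no direction. The other calls on the 10 genes kept their direction under every alternative tried. Of all 39 calls, 25 stayed past the threshold in each alternative. Of 555 alternative values for them, 46 no longer passed. Of the 111 values that were not called, 9 of 1613 alternative values passed, among them Selenof footprints in the mean of the clones and Selenot footprints among the clones with the replicate block, and 78 alternative values of 44 results changed sign, none of them past the threshold. The number of genes called for RNA in KO2 was 1 (20.4% of all genes), and it was 2 with the replicate number as a block (replicate block, 25.3%). It also changed with some replicates left out. For footprints, the number called was 2 in KO1, 2 in KO3 and 1 in the mean of the clones, both by DESeq2 (8.31%, 11.8% and 3.18% of all genes) and in thinned libraries (16.6%, 17.2% and 4.47%). Each footprint fit with a replicate left out had 1 library in that line. In KO1, KO3 and the mean of the 3 clones, each such fit called a lower share of all genes than the main fit. Counts of the 10 genes in these fits are therefore not compared. With the lysate block, 1 gene (Gpx4) differed in TE among the clones, where 3.42% of all genes did. Deviations of same-numbered libraries of different lines correlated above 0.1 in 2 of 6 RNA-seq pairs (r from 0.0189 to 0.336) and 4 of 6 Ribo-seq pairs (0.0833 to 0.148), not in every pair, so the numbers were not taken to pair the lines. Gpx4 footprints in KO2 were 0.010 from WT in thinned libraries and from -0.046 to 0.031 with each replicate left out, and Selenok RNA in KO2 ran from -0.029 to 0.39. Except for thinning and for leaving libraries out, which use fewer counts by construction, the cause was not tested. The median TE of the 10 genes in WT cells, relative to all genes, was -0.80, -0.81 with the longest coding sequence and -0.80 with library totals. With the other nested transcript, chosen after seeing the data, the relative footprint density was 0.0269 for Gpx1 and 8.62 for Selenop. For TE in KO1, DESeq2 gave an adjusted p for only 584 genes. Footprint counts were lowest for Selenok, with 11 to 77 per library, and Selenow, with 18 to 41.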
